A study of Rattus norvegicus with 12 samples.

Results

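The genes described here are 9 genes linked to brown fat and heat production, which are Ucp1, Cidea, Ppargc1a, Dio2, Elovl3, Cox7a1, Cox8b, Prdm16 and Adrb3. They were taken by gene name from the probes of the array. Of these 9 genes, 7 had a probe of that name, with 8 of the 30367 gene probes of the array between them, because Cidea had 2. No probe carried the name or a RefSeq transcript of Cox7a1 or Prdm16, and both were not analysed here. Tests were limited to probes well above background on 3 or more arrays, as were 6 of the 8 probes and 5 of the 7 genes. Dio2 and Elovl3 were not.

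Brown fat makes heat by letting protons leak back across the inner mitochondrial membrane through uncoupling protein 1, the product of Ucp1. Noradrenaline starts this process through the β3-adrenergic receptor, encoded by Adrb3, and cyclic AMP, which releases fatty acids as fuel and induces Ucp1, the coactivator gene Ppargc1a and the thyroid hormone activating deiodinase gene Dio2. Cells with this programme can also lie within white fat depots, where they are called beige, and the inguinal fat pad that carries the rodent mammary gland is a classic site of them. Several of these genes are not private to brown fat, since skeletal muscle uses Cox8b and Cox7a1 in its respiratory chain and Ppargc1a as a coactivator.

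The samples were lumbar mammary glands of female Wistar rats, 1 array per rat and 3 rats in each of 4 groups. NP rats were born to mothers given a normal diet with 17.0% protein during pregnancy, and LP rats to mothers given a diet with 8.8% protein, a model of intrauterine growth restriction. After birth all mothers were on standard chow, and the pups were suckled in reduced litters until day 21, when they were studied, or were weaned to the same chow and studied at day 28 of life. Visible lymph nodes had been cut away from the glands, and the labels do not say which rats shared a mother. Rats are named by diet and label, with a or c for day 21 and f for day 28, as in NP4a or LP7f.

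A level is the log2 signal of a probe minus the 75th percentile of its array, so that a step of 1 is a doubling. Levels of different probes cannot be compared with each other. On each array, 74.8% to 79.6% of gene spots were well above background and 0 were saturated. Each day had a slide of its own, so a difference of the days and one of the slides cannot be told apart. The NP arrays were all in row 1 of a slide, whereas 2 of 3 LP arrays were in row 2 on either slide. All 16 white fat markers with a probe were well above background on all 12 arrays, as were 16 of 17 mammary epithelium markers, the casein gene Csn2 being above it on none. LP6a stood apart, with a median correlation of 0.96 with the other arrays against 0.974 to 0.989 for the rest, and its mean level of lymphocyte and macrophage markers was -3.54 against 0.20 to 1.08. The mean level of 24 skeletal muscle markers was 1.85 on LP6a, 1.47 on NP6a and 0.71 on LP6f, and between -4.65 and -1.07 on the other 9 arrays. In whole tissue, fewer cells of a type and less RNA per cell cannot be told apart.

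The readings of Ucp1 and Ppargc1a come from a single probe sequence each, shown because the low signal of both genes rests on these bases alone. The Ucp1 probe lies at chr19:26527687-26527746 of rn4 on the minus strand and reads coding sequence. The Ppargc1a probe lies at chr14:64365667-64365726 on the plus strand and reads coding sequence too.
Ucp1 probe: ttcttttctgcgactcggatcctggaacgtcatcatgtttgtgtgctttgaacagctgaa
Ppargc1a probe: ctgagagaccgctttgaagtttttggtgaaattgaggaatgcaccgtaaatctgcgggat

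Ucp1 and Cox8b varied together across the rats, as described below, and Ppargc1a is a known target of cyclic AMP, so the 250 bases before the RefSeq start of each are given (build GRCr8). They lie at chr19:41721422-41721671 (minus strand), chr1:205408274-205408523 (minus strand) and chr14:63634058-63634307 (plus strand). Capitals mark the cAMP response element TGACGTCA or its core TGACG, searched on both strands. The window of Cox8b held neither.
Ucp1: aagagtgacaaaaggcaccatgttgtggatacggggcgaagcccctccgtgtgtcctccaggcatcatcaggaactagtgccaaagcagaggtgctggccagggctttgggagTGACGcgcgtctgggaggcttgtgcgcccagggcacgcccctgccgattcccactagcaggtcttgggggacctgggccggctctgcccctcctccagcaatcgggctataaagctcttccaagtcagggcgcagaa
Cox8b: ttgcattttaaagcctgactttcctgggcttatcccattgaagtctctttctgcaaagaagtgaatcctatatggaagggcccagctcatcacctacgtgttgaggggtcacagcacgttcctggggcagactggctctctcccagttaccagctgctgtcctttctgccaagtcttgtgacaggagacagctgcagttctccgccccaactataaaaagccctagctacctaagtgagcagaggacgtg
Ppargc1a: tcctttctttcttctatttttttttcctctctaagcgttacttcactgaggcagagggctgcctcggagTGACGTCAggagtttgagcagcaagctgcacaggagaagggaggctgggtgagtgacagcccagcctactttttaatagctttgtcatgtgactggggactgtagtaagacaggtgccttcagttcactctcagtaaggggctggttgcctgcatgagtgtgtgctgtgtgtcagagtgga

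Of the 9 genes, 8 had a promoter entry, Adrb3 being the one without. The whole element stood in the window of Ppargc1a alone among these 8, 181 bases before the start, and in 1.59% of all 33469 promoters. The core was found in Ppargc1a and in Ucp1, 137 bases before its start, and in 18.2% of all promoters. The nuclear receptor core motif AGGTCA, which 14.1% of promoters held, was in none of the 8 windows but at 2 places in that of the related gene Ucp3, 155 and 50 bases before its start. The oestrogen-related receptor element TCAAGGTCA, which contains that core, was in none of them and in 0.388% of all promoters. These matches describe letters only.

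For none of the 5 tested genes did the test find a difference between LP and NP rats or between the days. At day 21 and at day 28, 0 of 5 had an adjusted p under 0.05 for LP against NP by limma with Benjamini-Hochberg adjustment over all 23209 tested probes, of which 0% did on either day. At an unadjusted p under 0.05 the counts were also 0 of 5 on both days, against 4.36% of all tested probes at day 21 and 8.07% at day 28. Between day 21 and day 28 the counts were 0 of 5 in NP rats, in LP rats and over both diets, against 0.25%, 0% and 1.81% of all probes by adjusted p and 12.8%, 10.1% and 19.2% by unadjusted p. The lowest unadjusted p of any of the 5 genes was 0.143, for Ucp1 between the days over both diets, with an adjusted p of 0.41. The LP and NP difference changed between the days at an unadjusted p under 0.05 for 0 of 5 genes, against 2.26% of probes. The median difference over the 5 genes was -0.07 at day 21 and -0.22 at day 28 for LP against NP, beside 0.01 and -0.05 over all tested probes, and -0.58, 0.07 and -0.25 for the days in NP rats, in LP rats and over both, beside 0.03, -0.02 and 0.01.

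**Figure D1:**
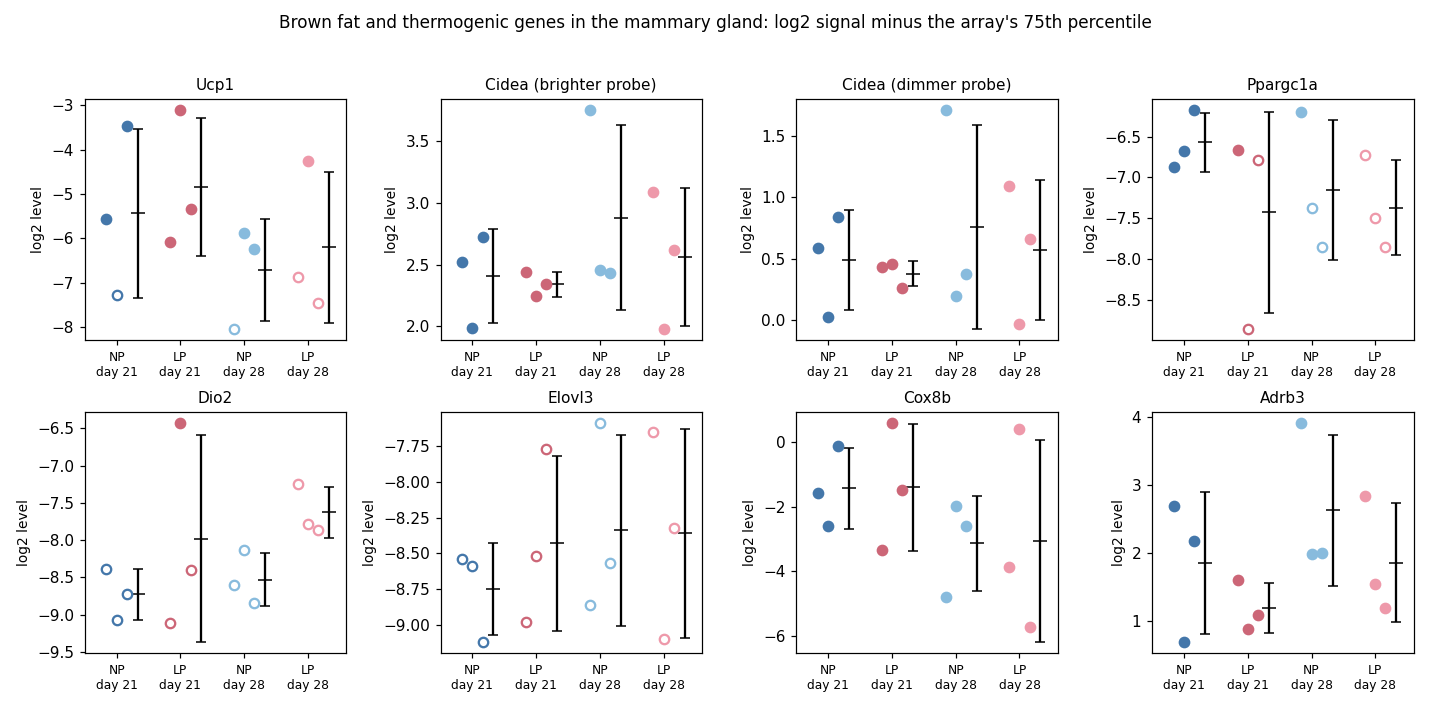
Level of each probe on each array, with NP rats in blue and LP rats in red, and lighter shades for day 28. Open circles are arrays on which the probe was not well above background, and the black mark and bars give the mean and SD of 3 rats. The y axes differ between panels and start at different values. The groups overlap in every panel but that of Dio2 at day 28, where no circle is filled.

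Ucp1, the uncoupling protein of brown fat, was detected at low signal and varied more between rats than most genes. Its level was -5.56 on NP4a, -7.27 on NP5a and -3.46 on NP6a, and -6.08 on LP4a, -3.10 on LP6a and -5.33 on LP7c. At day 28 it was -8.04 on NP4f, -5.88 on NP5f and -6.24 on NP6f, and -6.88 on LP4f, -4.26 on LP6f and -7.46 on LP7f. LP6a, NP6a and LP6f were the highest rats, and NP5a, NP4f, LP4f and LP7f were not well above background, so the groups overlapped in every comparison. On the 8 arrays well above background the level ran from -6.24 to -3.10. The within-group SD over all 12 was 1.60, above that of 99% of tested probes, whose median was 0.23. LP rats were higher by 0.59 (SE 1.18, n = 3 and 3) at day 21 and by 0.52 (SE 1.18) at day 28, with limma adjusted p of 0.952 and 0.871. The 95% intervals ran from -2.03 to 3.21 and from -2.10 to 3.14, so that differences of several fold in either direction lay within the error. Day 28 was lower than day 21 by a log2 difference of -1.29 (SE 1.18, adjusted p = 0.688) in NP rats and -1.36 (SE 1.18, adjusted p = 0.748) in LP rats. Single rats moved both, to between -2.21 without NP5a and -0.30 without NP6a in NP rats, and between -2.33 without LP6f and -0.49 without LP6a in LP rats. Without LP6a the difference of the diets at day 21 was -0.28 (SE 1.21, adjusted p = 1) and without NP5a -0.33, and at day 28 it was -0.45 without LP6f and -0.14 without NP4f, all of the opposite sign.

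The spots of Ucp1 lay closest together on LP6a and NP6a, the highest arrays. They lay farthest apart on NP5a, NP4f, LP4f and LP7f, which were not well above background. Its probe was printed on 10 spots, of which 7 to 10 per array were used. The SD of the spots was 0.04 on LP6a, where the level was highest, 0.07 on NP6a and 0.67 on NP4f, where it was lowest. Between these it did not follow the level strictly, being 0.19 on LP6f but 0.09 on NP4a and 0.11 on LP4a, which were lower. On NP4f the single spots gave signals of 4.01 to 15, and on LP6a of 224 to 248.

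**Figure D2:**
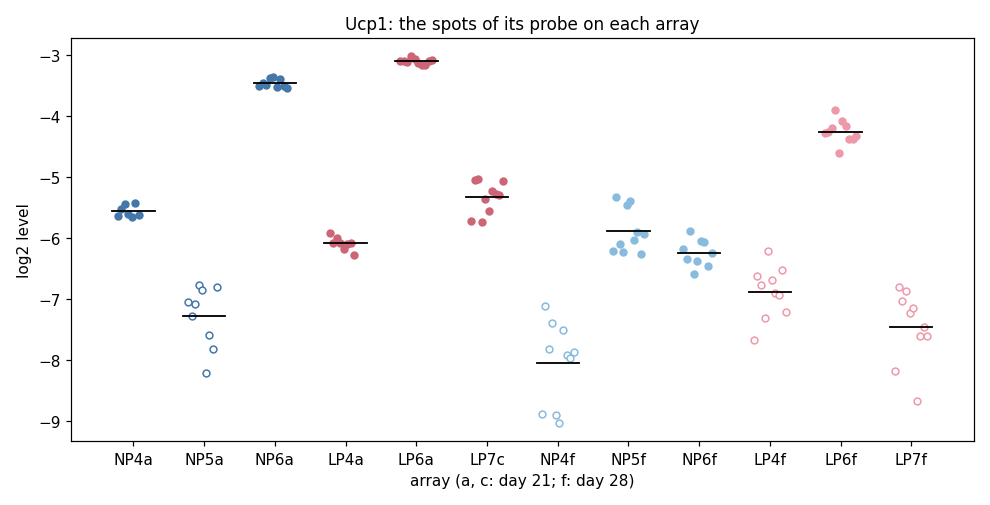
Each circle is 1 spot of the Ucp1 probe, the black line is their mean, and open circles mark arrays on which the probe was not well above background. The spots of LP6a, NP6a and LP6f lie above those of the other 9 arrays.

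Among the related uncoupling protein genes, Ucp2, which is widely expressed, was steady, and Ucp3, which skeletal muscle and brown fat use, was higher in LP rats at day 28 without passing the adjusted test. Ucp2 ranged from 0.32 on LP7c to 0.92 on NP5f, with differences between diets of -0.16 (SE 0.16, adjusted p = 0.905) at day 21 and -0.14 (SE 0.16, adjusted p = 0.725) at day 28. At day 28 the level of Ucp3 was -1.45 on NP4f, -0.96 on NP5f and -0.90 on NP6f, against -0.05 on LP4f, -0.46 on LP6f and -0.51 on LP7f. All 3 LP rats were above all 3 NP rats, a separation in one direction or the other that 16.8% of tested probes showed in that comparison. The difference was 0.76 (SE 0.30, interval 0.10 to 1.42), with an unadjusted p of 0.0281 and an adjusted p of 0.581 by limma. At day 21 the levels were -0.63, -1.57 and -0.58 in NP rats and -1.41, -0.64 and -1.14 in LP rats, which overlapped. The diet difference at day 28 minus that at day 21 was 0.90 (SE 0.42, adjusted p = 1). Between the days the log2 difference of Ucp3 was 0.72 (SE 0.30, adjusted p = 0.458) in LP rats and -0.18 (SE 0.30, adjusted p = 0.852) in NP rats.

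Cox8b, a subunit of cytochrome c oxidase found in brown fat, heart and skeletal muscle, had the widest range of the 7 genes. Its probe (chr1:201057325-201057384 of rn4, minus strand) was well above background on all 12 arrays. The level was -1.58 on NP4a, -2.61 on NP5a and -0.11 on NP6a, and -3.33 on LP4a, 0.60 on LP6a and -1.47 on LP7c. At day 28 it was -4.79 on NP4f, -1.99 on NP5f and -2.61 on NP6f, and -3.87 on LP4f, 0.40 on LP6f and -5.73 on LP7f. The highest 3 arrays were those of Ucp1, LP6a, LP6f and NP6a, and the signal spanned 80.3-fold, with a within-group SD above that of 99.6% of tested probes. The diets differed by 0.03 (SE 1.53, adjusted p = 0.999) at day 21 and by 0.07 (SE 1.53, adjusted p = 0.99) at day 28. Single rats turned the sign of both values, which ran from -0.97 without LP6a to 1.0 without LP4a at day 21 and from -1.67 without LP6f to 1.40 without LP7f at day 28. The intervals were wide, from -3.39 to 3.45 and from -3.35 to 3.48. Over both diets the log2 difference of day 28 from day 21 was -1.68 (SE 1.08, interval -4.10 to 0.73, adjusted p = 0.421). Without LP6f it was -2.55 (SE 0.84, adjusted p = 0.179), and without LP7f it was -1.02. In LP rats alone it was -1.66, and -3.40 without LP6f or -0.33 without LP7f.

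Ucp1 and Cox8b varied together from rat to rat, and both varied with the skeletal muscle markers. These relations were looked at with the values known, within a family of 11 relations tested by permutation (100000 resamples, two-sided). The permutations shuffled all 12 rats across diets and days and took them as independent, although some may share a mother. Over the 12 rats, Pearson's r between Cox8b and Ucp1 was 0.923 (p = 4e-05, Benjamini-Hochberg adjusted 0.00044) and Spearman's rho 0.937 (p = 5e-05, adjusted 0.00055). It was 0.915 within day 21 and 0.962 within day 28 (6 rats each), 0.92 without LP7f and LP6a, the rats farthest from the median of Cox8b, and 0.837 in the 9 rats without NP6a, LP6a and LP6f. The lowest Ucp1 levels, those of NP5a, NP4f, LP4f and LP7f, were not well above background and are less certain.

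Against the mean level of the muscle markers, r was 0.893 for Cox8b (p = 0.00013, adjusted 0.00071) with a rho of 0.902 (p = 0.00019, adjusted 0.001), and 0.854 for Ucp1 (p = 5e-04, adjusted 0.0014) with a rho of 0.825 (p = 0.0017, adjusted 0.0062), each by permutation. Within day 21 the values were 0.967 for Cox8b and 0.821 for Ucp1, and within day 28 they were 0.905 and 0.865. Without LP6a and NP6a, the rats farthest from the median of the markers, r was 0.838 for Cox8b and 0.675 for Ucp1. In the 9 rats without the 3 of highest muscle markers it was 0.723 for Cox8b and 0.436 for Ucp1, so that for Ucp1 the relation rested in large part on these 3 rats. The 9 rats include NP5a, NP4f, LP4f and LP7f, on which Ucp1 was not well above background. For Cidea (r = -0.395, permutation p = 0.2), Adrb3 (r = -0.241, p = 0.45) and Ppargc1a (r = -0.318, p = 0.32) the relation did not pass, with rho of -0.399, -0.203 and -0.315.

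**Figure D3:**
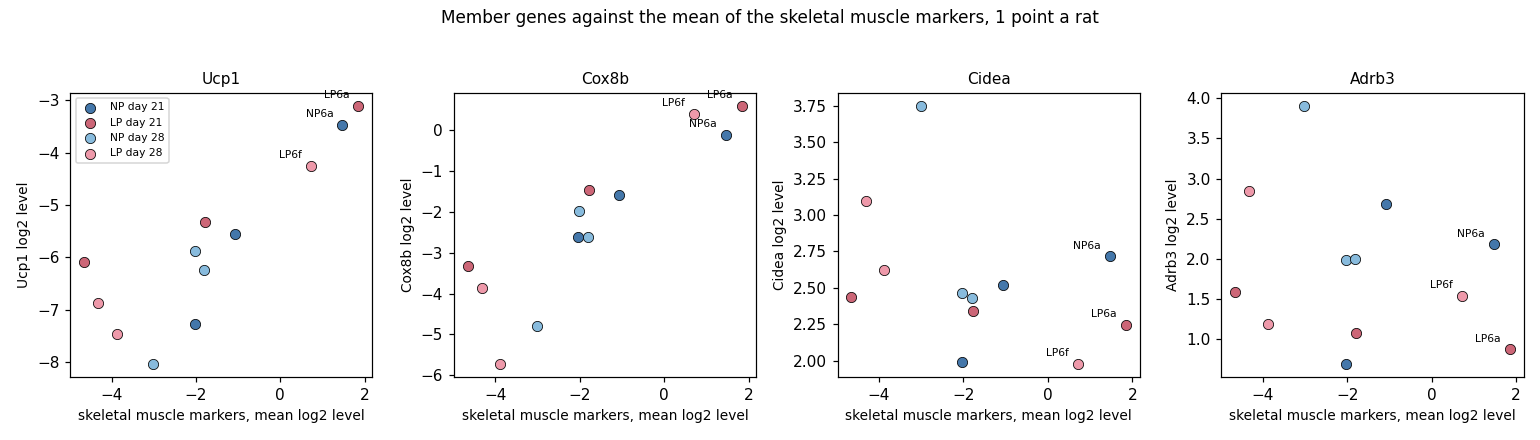
Each point is 1 rat. The x axis is the mean level of 24 skeletal muscle markers and the y axis the level of the gene named above the panel, both on the log2 scale, with axes of their own. NP6a, LP6a and LP6f, named in the panels, have the highest levels of the muscle markers, Ucp1 and Cox8b, and lie within the range of the other rats for Adrb3.

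Of the 24 muscle markers tested, 0 had an unadjusted p under 0.05 in any comparison, beside 2.26% to 19.2% of all probes. Their median difference of day 28 from day 21 over both diets was -1.40, against 0.01 over all tested probes. Their summed level, relative to the 75th percentile, ranged from 13.3 to 125 in NP and from 2.19 to 180 in LP rats at day 21, and from 5.84 to 16.9 and from 2.33 to 137 at day 28. With the mean of the markers as a covariate, the day difference over both diets was -0.49 (SE 0.40, adjusted p = 0.608) for Ucp1 and -0.60 (SE 0.53, adjusted p = 0.641) for Cox8b, against -1.32 and -1.68 without it. Without NP6a, LP6a and LP6f, these differences were -0.88 (SE 0.55) and -1.72 (SE 0.74). Without these 3 rats, the LP and NP difference at day 28 became -1.67 (SE 0.99, limma adjusted p = 0.536) for Cox8b. That of Ucp1 became -0.45 (SE 0.74, adjusted p = 0.811), both of the opposite sign to the values over all rats. With the mean of the markers as a covariate, the diet differences kept the sign they had over all rats. Ucp1 gave 1.2 (SE 0.54, limma adjusted p = 0.612) at day 21 and 0.65 (SE 0.53, adjusted p = 0.623) at day 28. Cox8b gave 0.82 (SE 0.72) and 0.24 (SE 0.71). The fits thus gave different signs at day 28. Both fits were added after the values were seen. The part of muscle in the levels of both genes was not tested.

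The genes most like Ucp1 over the 12 arrays, among 17514 other named genes with a tested probe, were Rtn2 (r = 0.95), Plcd4 (0.944), LOC641520 (0.936), Cox8b (0.923) and Klhl30 (0.921). Each is given as a description with no test. Cox8b was thus the 4th of 17514 in likeness to Ucp1. LOC641520 was well above background on NP4a, NP6a, LP6a and LP6f alone. Ucp1 itself was not on NP5a, NP4f, LP4f and LP7f, so these likenesses include readings near background.

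Cidea, which encodes a lipid droplet protein abundant in brown fat, was well above background on all 12 arrays. The level of its brighter probe (chr18:63896918-63896975, plus strand) was 2.52, 1.99 and 2.72 on NP4a, NP5a and NP6a and 2.44, 2.25 and 2.34 on LP4a, LP6a and LP7c. At day 28 it was 3.75, 2.46 and 2.43 on NP4f, NP5f and NP6f and 3.09, 1.98 and 2.62 on LP4f, LP6f and LP7f. NP4f was the highest rat and LP6f the lowest on both probes of the gene. The diets differed by -0.07 (SE 0.38, interval -0.91 to 0.78, adjusted p = 0.985) at day 21 and by -0.32 (SE 0.38, interval -1.16 to 0.53, adjusted p = 0.744) at day 28, the latter becoming 0.12 without NP4f. The second probe, which spans an intron (chr18:63888076-63895390), gave -0.10 (SE 0.40) and -0.19 (SE 0.40). Day 28 was above day 21 by 0.35 over both diets (SE 0.27, adjusted p = 0.502), and by 0.13 without NP4f.

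Adrb3, the receptor through which noradrenaline acts on fat cells (probe at chr16:69166311-69166370, plus strand), ranged over 9.27-fold in signal. Its level was 2.69 on NP4a, 0.69 on NP5a and 2.18 on NP6a, and 1.60 on LP4a, 0.88 on LP6a and 1.09 on LP7c. At day 28 it was 3.91 on NP4f, 1.98 on NP5f and 2.0 on NP6f, and 2.84 on LP4f, 1.55 on LP6f and 1.19 on LP7f. The mean of the LP rats was lower on both days and the groups overlapped on both. The difference was -0.67 (SE 0.66, interval -2.13 to 0.80, adjusted p = 0.903) at day 21 and -0.77 (SE 0.66, interval -2.24 to 0.69, adjusted p = 0.646) at day 28. The first value was -0.25 without NP4a and -1.25 without NP5a. The second was -0.13 without NP4f and -0.08 with the array row as a covariate. Day 28 was above day 21 by 0.72 over both diets (SE 0.46, interval -0.31 to 1.76, adjusted p = 0.419), and by 0.41 without NP4f.

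Cidea and Adrb3 were highest in the same rat and were related to each other. Over the 12 rats r was 0.861 (permutation p = 0.00042, adjusted 0.0014) and rho 0.797 (p = 0.0031, adjusted 0.0085). Within day 21 it was 0.839 and within day 28 0.885, and 0.569 without NP4f and LP4f, the rats farthest from the median of Cidea, so that its size rested in part on them. Against the mean of the white fat markers r was 0.355 for Cidea (permutation p = 0.27) and 0.277 for Adrb3 (p = 0.39), with rho of 0.601 (p = 0.044, adjusted 0.069) and 0.476 (p = 0.12). Within day 21 r was 0.777 for Cidea and 0.632 for Adrb3, within day 28 0.303 and 0.0849, and without LP4f and NP5a 0.0595 and -0.062. Against the mammary epithelium markers it was -0.596 for Cidea (permutation p = 0.039, adjusted 0.072) and -0.665 for Adrb3 (p = 0.018, adjusted 0.04), with a rho of -0.629 for both (p = 0.032, adjusted 0.059), and -0.335 and -0.31 without NP4f and NP4a, on which both values rested. The 3 genes most like Cidea by r were Letmd1 (r = 0.972, rho = 0.783), Chchd10 (r = 0.948, rho = 0.846) and LOC689065 (r = 0.947, rho = 0.916). Letmd1 and Chchd10 encode mitochondrial proteins and were on the list of brown fat mitochondria genes, which was looked up after the values were seen. LOC689065 was not on it. These values are a description with no test and were not recomputed without NP4f, the highest rat for Cidea.

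Ppargc1a, the coactivator that drives mitochondrial biogenesis, was near background. It was well above background on 5 of 12 arrays, NP4a, NP5a, NP6a, LP4a and NP4f, at levels of -6.87, -6.67, -6.17, -6.66 and -6.20. On the other arrays the measured levels, which are not well above background, ran from -8.86 on LP6a to -6.73 on LP4f. All 3 NP rats but 1 LP rat were above background at day 21, and the groups overlapped through LP4a and LP7c. The difference at day 21 was -0.86 (SE 0.61, interval -2.22 to 0.50, adjusted p = 0.862) and was -0.15 without LP6a. At day 28 no LP array was well above background and of the NP arrays NP4f alone was, so no fold is given. The fitted difference of -0.22 (SE 0.61, adjusted p = 0.899) became 0.25 without NP4f.

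Dio2, which turns thyroxine into its active form within the cell, and Elovl3, an elongase of very long chain fatty acids that cold induces in brown fat, were at or near background in this tissue with these probes. Dio2 (chr6:114308225-114308284, minus strand) was well above background on LP6a alone, at -6.43, and its levels on the other 11 arrays lay between -9.12 and -7.25. With 1 reading of 6 above background at day 21, no fold is given there either. At day 28 the 3 LP rats lay above the 3 NP rats, at -7.87 to -7.25 against -8.84 to -8.14, but none of these 6 readings was well above background, so no fold follows. This was the only case among the 7 genes in which groups did not overlap, which 11.5% of tested probes showed for the diets at day 21, 16.8% at day 28, 18.7% for the days in NP rats, 18.7% in LP rats and 3.72% over both diets. Elovl3 (chr1:251355273-251355332, plus strand) was not well above background on any array, with levels from -9.12 to -7.59.

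**Figure D4:**
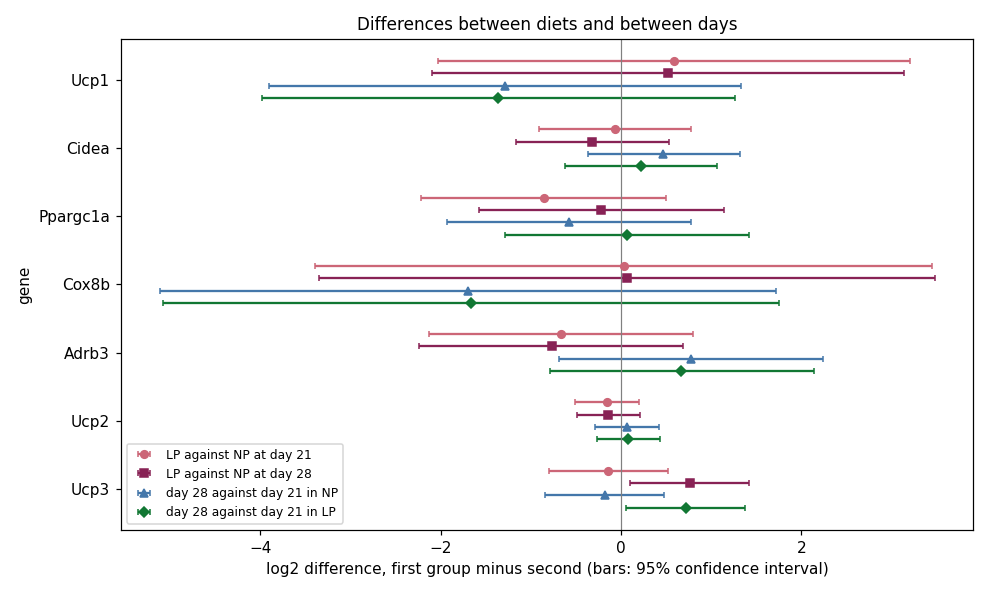
Log2 difference of each gene in the 4 comparisons of 2 groups, with 95% confidence intervals from the fit over all 12 arrays. Ucp2 and Ucp3 are shown beside the 5 tested members. Every interval of the members crosses 0, those of Ucp1 and Cox8b being the widest, and the intervals of Ucp3 for LP against NP at day 28 and for the days in LP rats do not.

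Across the wider programme, few genes passed the adjusted test, and these did so between the days. Among the transcription factors and regulators of brown fat, 27 were tested and 0 had an adjusted p under 0.05 in any comparison. For LP against NP, 2 of 27 were higher at day 21 at an unadjusted p under 0.05, the bone morphogenetic protein gene Bmp7 (0.83, SE 0.35, adjusted p = 0.861) and the nuclear factor gene Nfix (0.39, SE 0.16, adjusted p = 0.861). At day 28, 2 of 27 were lower, the corepressor gene Nrip1 (-0.45, SE 0.14, adjusted p = 0.581) and Bmp8a (-0.66, SE 0.25, adjusted p = 0.581). These shares of 7.41% stood beside 4.36% and 8.07% of all probes. Between the days over both diets Foxc2 (-0.59, SE 0.19), Ebf3 (-0.32, SE 0.12) and Plac8 (0.87, SE 0.36) had unadjusted p under 0.05, with adjusted p of 0.141, 0.196 and 0.229, a share of 11.1% beside 19.2%. Plac8 was at 2.31 on LP6a and at 4.48 to 5.52 on the other arrays. Zic1, a transcription factor that marks classical brown fat cells, was above background on no array, nor was Esrrb. Of the 30 genes of this list with a probe, 25 were well above background on all 12 arrays, Ebf2 among them. Lhx8, also on the list, was well above background on 11 arrays, with levels from -7.21 to -0.48 over all 12.

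Of the genes of adrenergic and thyroid signalling, 26 were tested and 0 passed the adjusted test in any comparison. At day 28, 4 of 26 were lower in LP rats at an unadjusted p under 0.05 and 0 higher, a share of 15.4% beside 8.07% of all probes. The 3 with the lowest p were Adcy3, an adenylyl cyclase (-0.57, SE 0.19), Pde4b, a phosphodiesterase that degrades cyclic AMP (-0.60, SE 0.20), and Prkacb, a catalytic subunit of protein kinase A (-0.38, SE 0.15), each with an adjusted p of 0.581. The other was Thrb, a thyroid hormone receptor gene (-0.55, adjusted p = 0.581), named after its value was seen. At day 28 all 3 LP rats were below all 3 NP rats for the first 3, with Pde4b from -4.59 to -4.02 against -3.99 to -3.28. In all, 6 of 26 genes of this list did not overlap there, beside 16.8% of all probes. At day 21, 1 of 26 was lower, the α2-adrenergic receptor gene Adra2a (-0.54, SE 0.21, adjusted p = 0.861), a share of 3.85% beside 4.36% of all probes. Between the days over both diets 7 of 26 had an unadjusted p under 0.05, 3 higher and 4 lower, a share of 26.9% beside 19.2%. Thra, a thyroid hormone receptor gene, was lower by a log2 difference of -0.46 (SE 0.11, adjusted p = 0.0682) and Adcy3 by -0.51 (SE 0.13, adjusted p = 0.0829).

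Among 45 tested genes of brown fat mitochondria and fuel use, Slc27a1, which encodes a fatty acid transport protein, rose between the days. It was the 1 gene of 45 to pass the adjusted test, over both diets, where 1.81% of all probes did. Its level was -0.06 to 0.42 in the 6 rats of day 21 and 0.70 to 1.97 in the 6 rats of day 28. These ranges did not overlap, as for 3.72% of all probes. Slc27a1 was higher at day 28 by 1.03 over both diets (SE 0.21, 2.05-fold, adjusted p = 0.0449), and by 1.05 in NP and 1.01 in LP rats. The call held with LP6f, NP4f or NP6f left out and with no other single rat left out, the highest adjusted p being 0.11. It was lost with the array row (adjusted p = 0.0646) or the muscle mean (0.114) as a covariate, and was kept under 8 of 24 alternatives in all. Day and slide cannot be told apart in this call and in those on the days below. For the diets, 0 of 45 at day 21 and 1 of 45 at day 28, Ucp3, had an unadjusted p under 0.05. The shares over all probes were 4.36% and 8.07%. Ntrk3, a neurotrophin receptor gene on this list, was lower at day 28 in LP rats (-0.86, SE 0.20, adjusted p = 0.257), and its diet difference changed between the days by -0.63 (SE 0.28, adjusted p = 1).

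Of 24 tested genes linked to beige fat and to other heat producing cycles, 0 passed the adjusted test. At day 21, Cd40 (-0.66, SE 0.21) and Epsti1 (-1.03, SE 0.37) were lower in LP rats at an unadjusted p under 0.05, with an adjusted p of 0.861 for both. They were 2 of 24, a share of 8.33% beside 4.36% of all probes. Cd40 is a receptor of immune cells. The lowest values of both, -0.17 and -3.69, were on LP6a, the rat with the lowest lymphocyte and macrophage markers. At day 28, 0 of 24 had an unadjusted p under 0.05, beside 8.07% of all probes. Between the days over both diets Sp100 (0.70, SE 0.17, adjusted p = 0.0756), Cd81 (-0.28, SE 0.08, adjusted p = 0.0934) and the amino acid transporter gene Slc36a2 (0.52, SE 0.17, adjusted p = 0.141) had the lowest p.

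The marker lists of the tissues around these genes moved as follows. Of 16 white fat markers, 0 had an unadjusted p under 0.05 for the diets on either day, beside 4.36% and 8.07% of all probes. Over both diets 2 rose and 1 fell between the days by adjusted p, beside 1.81% of all probes. Agt, which encodes angiotensinogen, rose by 0.91 (SE 0.14, 1.88-fold, adjusted p = 0.0173), from 3.21 to 3.95 at day 21 to 4.14 to 4.95 at day 28. Retn, which encodes the adipokine resistin, rose by 0.69 (SE 0.13, 1.61-fold, adjusted p = 0.0384), and Nnat, which encodes neuronatin, fell by 2.09 on the log2 scale (SE 0.41, 4.26-fold lower, adjusted p = 0.0385). For each of the 3 the rats of day 28 and of day 21 did not overlap, as for 3.72% of all probes. Agt kept its call without any single rat but NP6a (adjusted p = 0.0583), whereas Retn kept it without LP7c or LP6f alone and Nnat without NP4f or NP6f alone, with adjusted p up to 0.0889 and 0.0938. The calls of Retn and Nnat were also lost with the array row as a covariate (adjusted p = 0.0588 and 0.0583) and with the muscle mean as a covariate (0.0952 and 0.0937). Of 24 alternatives, Agt kept its call under 22, Nnat under 8 and Retn under 7.

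Of 15 tested endothelium and nerve markers, 8 had an unadjusted p under 0.05 between the days over both diets, 7 lower and 1 higher, a share of 53.3% beside 19.2%. Dbh, which encodes the enzyme that makes noradrenaline, was well above background on no array. The endothelial receptor gene Tie1 fell between the days by 0.63 (SE 0.12, adjusted p = 0.035), a call kept without NP4a, LP6f or NP4f and with no other rat left out (adjusted p up to 0.0819), lost with the muscle mean as a covariate (0.0898) and kept under 10 of 24 alternatives. Th, which encodes the rate-limiting enzyme of noradrenaline synthesis, was lower in LP rats at day 28 by a log2 difference of -0.44 (SE 0.12, unadjusted p = 0.00483, adjusted p = 0.581 by limma). Its levels there were -1.08, -1.12 and -1.09 on LP4f, LP6f and LP7f, below -0.72, -0.40 and -0.86 on NP4f, NP5f and NP6f. A separation in one direction or the other was shown by 16.8% of tested probes in that comparison. At day 21 the levels of Th were -0.97, -1.14 and -1.13 in NP and -1.22, -1.17 and -1.07 in LP rats, which overlapped. Tie1 was also lower in LP rats at day 28 (-0.46, SE 0.17, adjusted p = 0.581), and Ngfr, a nerve growth factor receptor gene, at day 21 (-0.55, SE 0.23, adjusted p = 0.861). At an unadjusted p under 0.05, Th and Tie1 were 2 of 15 at day 28, a share of 13.3% beside 8.07% of all probes. Ngfr was 1 of 15 at day 21, a share of 6.67% beside 4.36%.

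Of 16 mammary epithelium markers, Cldn7 (1.24, SE 0.54) and Cldn3 (0.91, SE 0.41) were higher in LP rats at day 21 at an unadjusted p under 0.05. Both had a limma adjusted p of 0.861, and their share of 12.5% stood beside 4.36% of all probes. At day 28, 0 had an unadjusted p under 0.05, beside 8.07% of all probes, and the median difference was 0.64. There 7 of 16 did not overlap between the diets, beside 16.8% of all probes, and the mean of the list was -0.56 to -0.20 in LP rats, above -1.89 to -0.63 in NP rats. Of 15 lymphocyte and macrophage markers, Cd74 was lower in LP rats at day 21 (-1.20, SE 0.44, adjusted p = 0.861), with 2.09 on LP6a against 3.78 to 4.65 on the other rats of that day. It was the 1 of 15 with an unadjusted p under 0.05, a share of 6.67% beside 4.36% of all probes. At day 28 the median difference of these 15 was -0.48 and 0 had an unadjusted p under 0.05, beside 8.07% of all probes. The groups did not overlap there for 10 of 15, beside 16.8% of all probes, and at day 21 for 7 of 15, beside 11.5%. The mean of the list at day 28 was 0.20 to 0.59 in LP rats, below 0.71 to 1.08 in NP rats. Of 10 tested skin and sebaceous gland markers, 0 had an unadjusted p under 0.05 in any comparison, beside 2.26% to 19.2% of all probes.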

How the data were processed

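Total RNA of 12 mammary glands was hybridised to one-colour Agilent arrays whose probes are placed on rn4. Per the file headers, the deposited intensity values (processed, mean and background median signals) and the background and outlier flags came from Agilent Feature Extraction 10.7.3.1. The deposited values of the series matrix held, as a ratio, the processed signal of each spot over a constant of its array, as found by comparison of both files.

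Outlier spots were left out, spots of a probe were averaged, and log2 of the processed signal minus the 75th percentile of the array was analysed. Probes well above background, in a share of at least 0.5 of their spots, on at least 3 of 12 arrays were fitted in 1 model with 4 groups (limma 3.58.1, R 4.3.3), with Benjamini-Hochberg adjustment over all 23209 tested probes. The code was tested on simulated data. Correlations used 100000 permutations, shuffled over all rats without regard to group or label number. Replicates were rats, with litters not given. Alternatives were quantile and normexp (offset 50) normalization, other filters, those deposited ratios, array row, label number as a block, and each array left out.

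The members and lists were chosen with earlier results of these data known. Named genes were all members, the genes of each list with adjusted p under 0.05 or else up to 3 with the lowest unadjusted p under 0.05, and the 5 genes most correlated with Ucp1. Where a gene had 2 probes, the brighter gave its value. Label numbers shared across groups were not taken to pair the samples. Promoter sequences were those of RefSeq on GRCr8.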

Additional observations from a re-analysis of the deposited data

How the results depend on the processing

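In 364 recomputed values of the members under settings other than leaving out 1 array, 0 had an adjusted p under 0.05 by limma and 21 had the opposite sign. In 360 values with 1 array left out these were 0 and 34, and the lowest adjusted p of a member under any setting was 0.169. All values in this paragraph are log2 differences. With the row of the array on its slide as a covariate, LP against NP at day 21 was 0.03 for Adrb3, 0.25 for Cidea, -1.34 for Cox8b and -0.37 for Ucp1, and at day 28 -1.30 for Cox8b, 0.49 for Ppargc1a and -0.44 for Ucp1. Without the 3 arrays brightest for muscle markers, a setting chosen after seeing the data, LP against NP at day 21 was 0.13 for Cidea, -0.31 for Cox8b and 0.05 for Ppargc1a, and at day 28 -1.67 for Cox8b and -0.45 for Ucp1. In that setting the change of this difference between the days was -1.35 for Cox8b and -0.20 for Ppargc1a, and the difference of the days in LP rats -0.58 for Ppargc1a. With the muscle mean as a covariate, likewise chosen afterwards, the change of the diet difference was -0.58 for Cox8b and the difference of the days in LP rats -0.11 for Ppargc1a. With normexp background, Ppargc1a gave 0.00 for LP against NP at day 28, 0.10 for the days in NP rats and 0.12 over both diets, and the change of the diet difference was 0.06 for Ucp1. The causes were not tested.

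With 1 array left out, LP against NP at day 21 ran from -0.28 to 0.09 for Cidea, from -0.97 to 1.0 for Cox8b and from -0.33 to 1.58 for Ucp1. At day 28 it ran from -0.58 to 0.12 for Cidea, from -1.67 to 1.40 for Cox8b, from -0.58 to 0.25 for Ppargc1a and from -0.45 to 1.15 for Ucp1. The change of the diet difference ran from -0.60 to 0.53 for Adrb3, from -0.51 to 0.19 for Cidea, from -1.70 to 1.37 for Cox8b, from -0.07 to 1.12 for Ppargc1a and from -1.05 to 0.85 for Ucp1. The difference of the days in LP rats ran from -0.04 to 0.52 for Cidea and from -0.65 to 0.46 for Ppargc1a. By limma, the count of members with an unadjusted p under 0.05 ran from 0 to 1 for the days in LP rats and from 0 to 2 over both diets. The higher counts were without LP6f. There Cox8b gave -3.40 (limma adjusted p = 0.462) in LP rats and -2.55 (adjusted p = 0.179) over both diets, and Ucp1 -1.81 (adjusted p = 0.295) over both. The share of all tested probes was not computed without LP6f, so these counts have no background beside them.

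With the label number as a replicate block, 1 of the 5 members had an unadjusted p under 0.05 by limma in each of LP against NP at day 21 and at day 28 and the days in NP rats, and 2 between the days over both diets. By limma these were Adrb3, at -0.93 (adjusted p = 0.56), -1.03 (adjusted p = 0.637), 0.78 (adjusted p = 0.392) and 0.72 (adjusted p = 0.169), and Ucp1 over both diets at -1.32 (adjusted p = 0.255). With diet and number as a fixed replicate block the count over both diets was 1, Adrb3 (limma adjusted p = 0.211). The shares of all tested probes at an unadjusted p under 0.05 were not computed with either block. These counts therefore cannot be set against a background share. The SE of Adrb3 for the diets was 0.36 with the label number as a block and 0.66 without it. Deviations from the group means correlated above 0 in 13 and above 0.1 in 8 of 14 same-numbered pairs (-0.055 to 0.38). Of 12 arrays, 10 were closest to their own number in the same diet on the other day, a hint from the data and not the design. Of 8 arrays with their number in the other diet on the same day, 6 were closest to it, though these rats had different mothers. With diet and number as a random block the consensus correlation was 0.027. The labels do not say that the numbers mark litters.

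Of the 5 listed genes called between the days, 0 had an adjusted p under 0.05 without the 3 arrays brightest for muscle markers (0.101 to 0.202), where 0 of all tested probes did. Their differences there were 0.90 for Agt, 0.78 for Retn, 1.24 for Slc27a1, -2.25 for Nnat and -0.65 for Tie1. The filter for all 12 arrays left out Ucp1 and Ppargc1a, fits of only the groups compared gave no value over both diets, and the fixed block gave only comparisons of the days. Low signal limits Ppargc1a, Dio2 and Elovl3, and 3 rats a group limit all members.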
